A study of Homo sapiens with 22 samples.

Results

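NF-κB is a family of dimeric transcription factors built from the subunits encoded by NFKB1, NFKB2, REL, RELA and RELB, which bind short κB motifs in DNA. In resting cells the dimers are held in the cytoplasm by IκB proteins, and adaptors, ubiquitin ligases and kinases that act below cytokine and pattern recognition receptors release them. Active NF-κB induces its own inhibitors, among them NFKBIA and TNFAIP3, and in kidney tubule epithelium the pathway is known for its part in injury and inflammation.

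A list of 34 genes of this pathway was followed, with the chemokines and interleukins left out. It holds 5 subunits, 5 IκB proteins, 10 signalling adaptors and kinases, 5 negative feedback regulators, 7 cytokine and target genes and 2 C/EBP factors, which often act with NF-κB on shared targets. Of the 34 genes, 31 were found among the 36859 genes of the table. Expression of TNF, IRAK2 and PTX3 was not analysed here, although their promoters were included in the motif search. A further 63 genes of the pathway, listed apart from these, are given as counts with a few examples.

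Expression was measured by RNA-seq in RPTEC, human renal proximal tubule epithelial cells immortalized with hTERT, in 22 libraries from 11 groups of 2 replicates. The 2% serum groups were WT, WT given TGF-β at 10 ng/mL during 72 h, both SETD2 KO clones (KO1, KO2), and libraries labelled KO2 rescue. The groups in regular medium with 10% serum were Rescue1, Rescue2 and 4 transduced WT lines that carry eGFP, SOX2, OCT2 or PRRX1. All carry hTERT and were kept under G418. KO1 and KO2 are single clones with frameshifts in both SETD2 alleles, Rescue1 and Rescue2 are single clones of KO cells that express full-length FLAG-tagged SETD2 from a lentivirus under blasticidin, and the transduced WT lines are bulk populations selected with puromycin. Which KO clone gave rise to Rescue1 or Rescue2 is not given in the labels. No source used here says that replicates were separate cultures, so p-values measure only the spread between these libraries.

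Values are normalized counts, recovered from the deposited log2 values, with totals of 11674491 to 16758645 per library from approximately 7600000 to 18800000 reads. A gene was called when limma's adjusted p was under 0.05 and the log2 change of (normalized count + 1) was over 1 in size, and 30 members had enough counts to be tested. CD83, a surface protein of activated immune cells, was listed at 0 in 21 libraries and was not tested.

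SETD2 itself, the histone methyltransferase gene that was targeted, stood at 1852 and 2061 normalized counts in WT. Under TGF-β its counts were 1955 and 2021. It had 1046 and 1130 in KO1 and 1050 and 1052 in KO2, a log2 change of -0.84 ± 0.07 and -0.89 ± 0.07 (SE; adjusted p = 1.3e-07 for each), so SETD2 mRNA was lower but still present in both clones. Rescue1 had 10240 and 10369 and Rescue2 had 10445 and 9764. The libraries labelled KO2 rescue had 834 and 820, below KO2, which goes against their label, and they are called by that label throughout. The eGFP line had 3128 and 2947, and the SOX2, OCT2 and PRRX1 lines lay between 2702 and 2980.

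The cells carried epithelial rather than immune markers. Of 12 immune markers, 6 to 8 per group were at or below 3 reads, among them CD3E, ITGAM, TYROBP and SPI1 in every group, and their summed level was at most 398 normalized counts, with CD68 or CSF1R the most abundant. The summed level of 12 epithelial and proximal tubule markers was 39418 and 43314 in WT, 19893 and 18233 in KO1, and 27662 and 26671 in KO2, with KRT19, PAX8 and KRT8 the most abundant in turn. It was 33623 and 35152 with TGF-β, 45459 and 46166 in the libraries labelled KO2 rescue, 42491 to 47221 in Rescue1 and Rescue2, and 26658 and 28298 in the eGFP line. CD68 had 147 and 106 normalized counts in WT, 364 and 210 in KO1, 190 and 145 in KO2, and 30.6 and 2.54 in the libraries labelled KO2 rescue. LRP2, a defining gene of the proximal tubule, was at or below 3 reads in every group, and SLC34A1 in 6 of the 11. A list of 6 endothelial markers summed to 4.99 and 40.3 in WT, 126 and 149 in KO1 and 157 and 152 in KO2, with KDR the most abundant in KO and CLDN5 at or below 3 reads in every group. The part of these marker lists in the members' changes was not tested, and in bulk samples fewer cells of a type and less RNA per cell cannot be told apart.

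Promoters of members that the results turn on are shown first, since several hold κB motifs next to the start of transcription. The RefSeq promoter table on GRCh38 holds 29 of the 34 members. The κB consensus, searched on both strands in the 250 bases before and 50 bases after each start, was present in 11 of these 29 promoters (37.9%) and in 2958 of all 27305 promoters of the same length (10.8%). A stricter form of the consensus, with A fixed at the fourth position and T at the sixth, the seventh and the eighth, and whose matches are all matches of the consensus too, was present in 5 of 29 (17.2%) against 158 of 27305 (0.6%). The 250 bases before the start are printed 5′ to 3′ on the strand of the gene, in lower case with each consensus match in capitals, for NFKBIA (chr14:35404750-35404999, minus strand), NFKBIZ (chr3:101827740-101827989, plus strand), TNFAIP3 (chr6:137867009-137867258, plus strand) and MAP3K8 (chr10:30433771-30434020, plus strand).
NFKBIA: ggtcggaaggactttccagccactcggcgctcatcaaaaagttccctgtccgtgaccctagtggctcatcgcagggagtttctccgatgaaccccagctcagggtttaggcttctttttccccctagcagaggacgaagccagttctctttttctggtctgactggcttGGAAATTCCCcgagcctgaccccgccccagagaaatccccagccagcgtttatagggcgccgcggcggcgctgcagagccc
NFKBIZ: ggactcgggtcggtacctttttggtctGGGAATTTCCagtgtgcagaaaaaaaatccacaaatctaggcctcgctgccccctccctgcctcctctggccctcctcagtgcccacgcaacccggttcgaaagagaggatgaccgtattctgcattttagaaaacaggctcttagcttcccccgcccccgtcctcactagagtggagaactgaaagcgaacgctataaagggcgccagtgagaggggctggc
TNFAIP3: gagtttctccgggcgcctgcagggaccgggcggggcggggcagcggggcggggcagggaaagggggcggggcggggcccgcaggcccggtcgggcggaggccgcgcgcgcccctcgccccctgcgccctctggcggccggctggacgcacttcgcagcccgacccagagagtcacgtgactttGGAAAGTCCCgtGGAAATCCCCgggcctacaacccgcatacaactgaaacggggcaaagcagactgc
MAP3K8: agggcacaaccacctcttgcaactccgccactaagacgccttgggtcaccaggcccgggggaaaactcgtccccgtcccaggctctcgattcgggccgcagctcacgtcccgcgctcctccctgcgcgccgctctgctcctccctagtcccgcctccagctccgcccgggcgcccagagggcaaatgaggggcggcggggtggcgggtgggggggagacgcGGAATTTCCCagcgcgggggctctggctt

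The match began 81 bases before the start in NFKBIA, 223 in NFKBIZ, and 29 in MAP3K8, and TNFAIP3 held a pair that began at 67 and 55 bases. TRAF3 and TNIP3 held a match that began 33 and 62 bases before the start, and NFKB1 and REL held one at 49 and 47 bases. Of the 12 members called higher in both KO clones, 11 have a promoter in the table, and 6 of the 11 held a match (54.5%), against 4 of 14 (28.6%) among the other tested members. Among the 4, BCL3 held its match after the start. No match was found in this window for SOD2, IRAK3, TNFAIP2, ZC3H12A or CEBPB, which says only that these letters do not occur in it. For SOD2, the 250 bases before the start used (chr6:159727385-159727634, minus strand) lie inside the gene's span of chr6:159669069-159762281. For TNFAIP2 they (chr14:103123211-103123460) also lie inside its span of chr14:103121476-103137439. The absence therefore does not cover a start at the outer end of either span. The members were listed as NF-κB subunits, regulators and feedback targets, so their share of matches is not independent of how the list was made. A match is a description of sequence and not of binding.

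**Figure D1:**
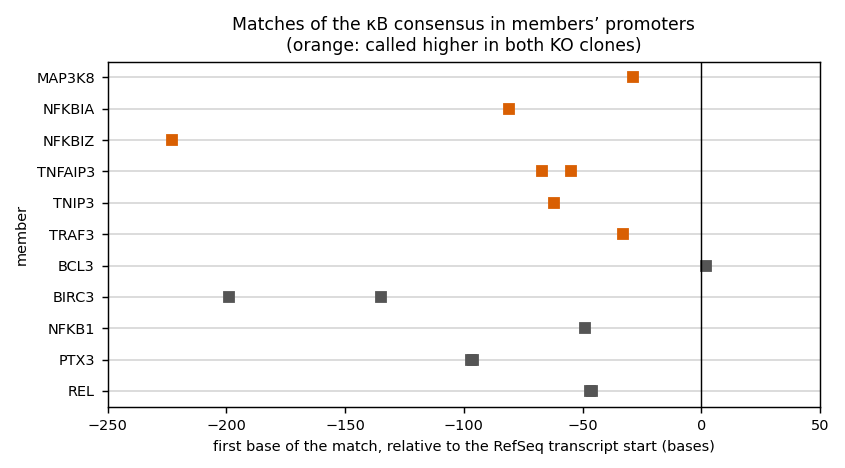
Position of κB consensus matches in the promoters of the 11 members that hold one, with the first base of each match on the x axis in bases from the RefSeq start and orange for members called higher in both KO clones. The matches of MAP3K8, NFKBIA, TNFAIP3, TNIP3 and TRAF3 lie within 81 bases of the start, and that of NFKBIZ lies 223 bases before it.

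The first question was how the pathway in both SETD2 KO clones differed from WT in the same serum. KO cells were also nucleofected, sorted and cloned, which is not described for WT, so these steps and SETD2 loss cannot be told apart. In KO1, 16 of the 30 tested members were called higher than in WT and 0 lower, where 12% of all 14585 tested genes were called higher and 13.1% lower. In KO2, 12 were called higher and 2 lower, NFKBIE and TRAF1, against 9.02% and 7.29% of all genes. The clones are compared with the same WT libraries, so the shares of all genes per clone do not give the background for calls in both. That background is not given here, so the count of members called in both stands without it. Called higher in both were 12 members, and BCL3, BIRC3, RIPK2 and CYLD were called only in KO1, which does not show that the clones differ there. BCL3, a nuclear IκB, lost its call when any of the 4 libraries was left out. The TRAF1 call in KO2 (just past the fold threshold, adjusted p = 0.0220) was lost without WT replicate 1 or without KO2 replicate 1. The median log2 change of the tested members was 1.15 in KO1 and 0.85 in KO2, where that of all genes was 0.

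By role, none of the 5 subunits was called in either clone. The 12 comprised 2 IκB proteins (NFKBIA and NFKBIZ), 3 adaptors and kinases (TRAF3, IRAK3 and MAP3K8), 3 negative feedback regulators (TNFAIP3, TNIP3 and ZC3H12A), 2 target genes (TNFAIP2 and SOD2) and both C/EBP factors. Scaling every library to the same total lowered the median of all genes by 0.40 in KO1 and 0.21 in KO2. It changed the calls over all genes in KO1 from 1744 higher and 1909 lower to 1150 and 3008, and in KO2 from 1315 and 1063 to 1069 and 1521. It left 11 members higher and 2 lower (NFKBIE and MAP3K14) in KO1, and 8 of the 12 higher in both clones, with NFKBIA, NFKBIZ, TRAF3 and ZC3H12A falling under the fold threshold in at least 1 clone.

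**Figure D2:**
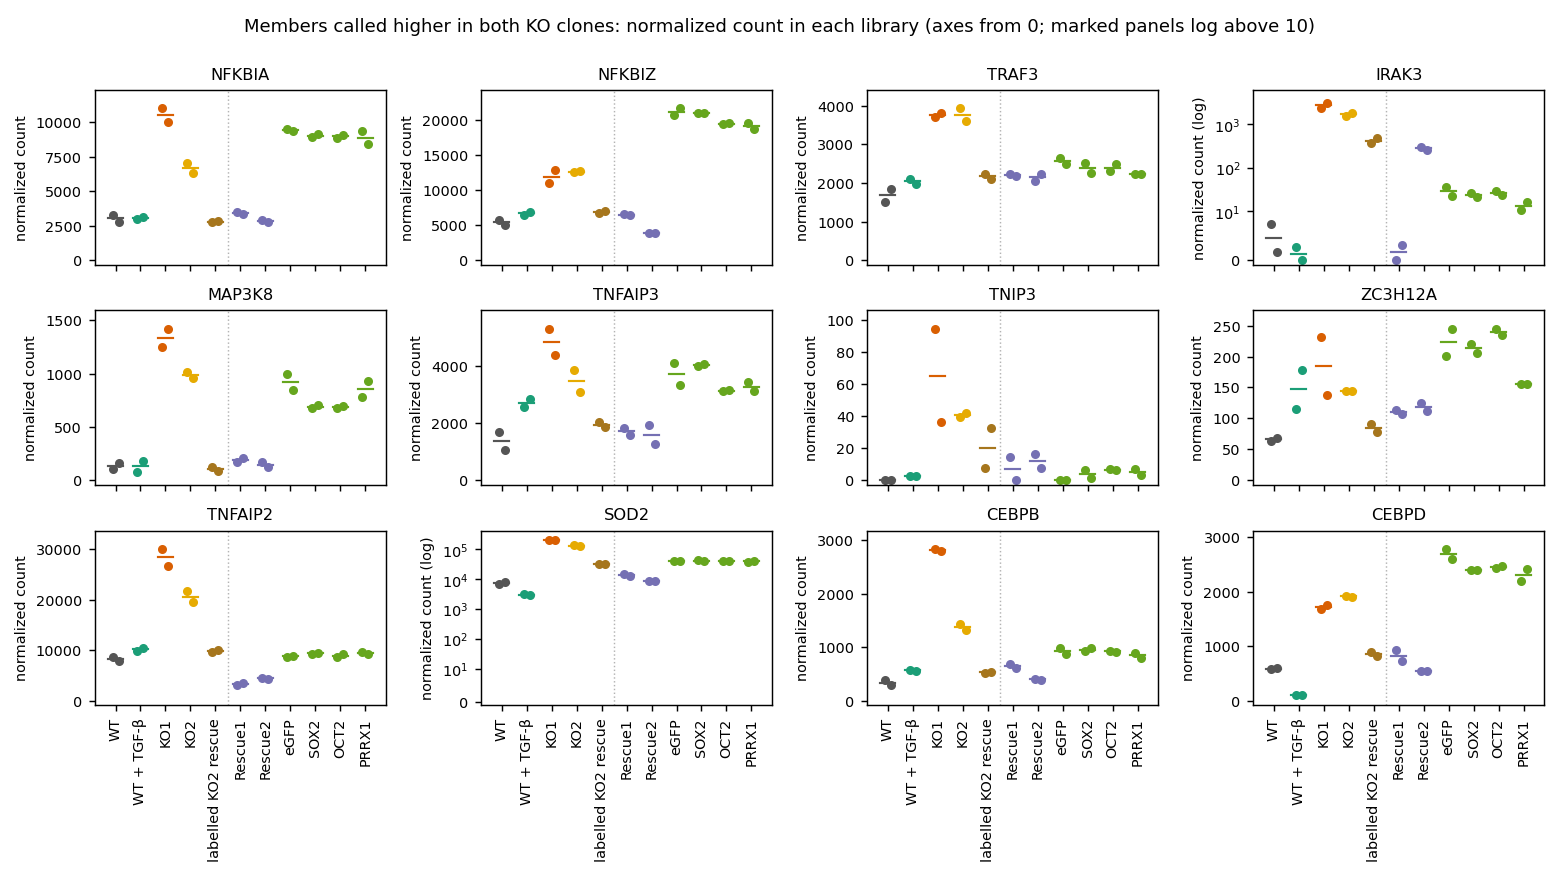
Normalized counts of the 12 members called higher in both KO clones, 1 point per library and a bar at the mean of 2, with groups in 2% serum left of the dotted line and in 10% serum right of it; axes start at 0, and SOD2 and IRAK3 have a log axis above 10. KO1 and KO2 points lie above both WT points in every panel. The green points of transduced WT overlap with or exceed KO points for NFKBIA, NFKBIZ, MAP3K8, TNFAIP3, ZC3H12A and CEBPD. For SOD2 and CEBPB they lie between WT and KO.

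SOD2 encodes mitochondrial manganese superoxide dismutase, and in both KO clones it had the highest normalized counts of the members, whereas TNIP1 and TNFAIP2 were above it in WT. It had 6940 and 7823 normalized counts in WT, 3140 and 2962 under TGF-β, 212516 and 212146 for KO1, and 140999 and 125712 for KO2. KO clones were thus 28.8-fold and 18.1-fold above WT (log2 change 4.85 ± 0.07 and 4.18 ± 0.07 (SE), adjusted p = 1.3e-15 and 1.1e-14), and TGF-β moved it the opposite way. It had 32937 and 31685 in the libraries labelled KO2 rescue, 14851 and 12997 in Rescue1, 8591 and 8823 in Rescue2, and 41069 and 41600 in the eGFP line, with 39248 to 42583 in the other transduced lines. No group overlapped with WT. The gene spans chr6:159669069-159762281 in RefSeq.

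IRAK3, a kinase-like protein that restrains signalling from Toll-like receptors, was close to absent in WT and abundant in both clones. It had 7.41 and 1.66 normalized counts in WT and 2.57 and 0 under TGF-β, but 2379 and 3007 in KO1 and 1570 and 1847 in KO2. The log2 change was 9.14 ± 0.69 and 8.49 ± 0.69 (SE; adjusted p = 6.4e-08 and 2.6e-07). It had 364 and 477 in the libraries labelled KO2 rescue, 0 and 3.1 in Rescue1, 305 and 258 in Rescue2, 36.5 and 22.5 in the eGFP line, and 10.8 to 29.3 in the other transduced lines. Rescue1 was as low as WT and Rescue2 was not. IRAK3 spans chr12:66189195-66254622 on the plus strand.

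MAP3K8, a kinase that activates the MEK and ERK pathway, had 110 and 166 normalized counts in WT, 76.5 and 186 under TGF-β, 1251 and 1422 for KO1, and 1014 and 961 for KO2. It was 9.69-fold and 7.16-fold above WT (log2 change 3.29 ± 0.32 and 2.86 ± 0.32 (SE), adjusted p = 8.4e-07 and 6.0e-06). It was low again at 122 and 89.4 in the libraries labelled KO2 rescue, 174 and 205 in Rescue1 and 168 and 123 in Rescue2. The eGFP line had 994 and 848, and the other transduced lines 674 to 933, so that the eGFP line overlapped with KO2.

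Among the IκB proteins, NFKBIA encodes the main cytoplasmic inhibitor and spans chr14:35401079-35404749 on the minus strand. It had 3260 and 2791 normalized counts in WT, 2973 and 3134 under TGF-β, 10980 and 10023 for KO1, and 7063 and 6305 for KO2 (log2 change 1.80 ± 0.08 and 1.15 ± 0.08 (SE), adjusted p = 1.6e-10 and 4.7e-08). It had 2742 and 2856 in the libraries labelled KO2 rescue, 3453 and 3375 in Rescue1, 2944 and 2775 in Rescue2, 9523 and 9335 in the eGFP line, and 8402 to 9318 in the other transduced lines. WT, TGF-β and the 3 rescue groups therefore lay within 2742 to 3453, apart from KO and transduced WT.

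NFKBIZ, a nuclear IκB that works as a coactivator at a subset of NF-κB targets, had 5736 and 5062 in WT, 6509 and 6848 under TGF-β, 11013 and 12829 for KO1, and 12547 and 12672 for KO2 (log2 change 1.14 ± 0.07 and 1.23 ± 0.07 (SE), adjusted p = 5.6e-09 and 5.1e-09). It had 6707 and 7004 in the libraries labelled KO2 rescue, 6611 and 6399 in Rescue1, and 3889 and 3825 in Rescue2. The eGFP line, at 20691 and 21633, and the other transduced lines, at 18735 to 21053, were above both KO clones. NFKBIE, a cytoplasmic IκB, ran the other way, with 738 and 419 in WT, 340 and 313 in KO1, and 194 and 300 in KO2 (log2 change -0.77 ± 0.28, not called, and -1.20 ± 0.28 (SE), adjusted p = 0.00381). Its KO2 call was lost without WT replicate 1 or without KO2 replicate 1, with changes down to -0.79. NFKBIB, another cytoplasmic IκB, was called in neither clone.

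Of the negative feedback regulators, TNFAIP3, a ubiquitin-editing enzyme that shuts off signalling below the TNF receptor, had 1693 and 1061 in WT, 2564 and 2835 under TGF-β, 5307 and 4377 for KO1, and 3872 and 3075 for KO2 (log2 change 1.85 ± 0.21 and 1.36 ± 0.21 (SE), adjusted p = 5.2e-06 and 1.5e-04). It had 2050 and 1857 in the libraries labelled KO2 rescue, 1825 and 1597 in Rescue1, 1937 and 1271 in Rescue2, 4122 and 3330 in the eGFP line, and 3117 to 4086 in the other transduced lines. KO clones, transduced WT and, to a lesser extent, TGF-β were above WT. TNIP3, a TNFAIP3-binding protein, was listed at 0 in both WT libraries and at 2.43 and 2.98 under TGF-β, with 94.6 and 36.2 in KO1 and 39.8 and 41.8 in KO2. If the WT zeros are true low values, with 3 reads per WT library as the floor, KO1 was at least 24.5-fold higher and KO2 at least 15.3-fold higher. It had 7.7 and 32.8 in the libraries labelled KO2 rescue, 14.7 and 0 in Rescue1, 16.6 and 7.44 in Rescue2, and 0 to 7.24 in transduced WT.

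ZC3H12A, a ribonuclease that degrades inflammatory mRNAs, had 64.1 and 69.1 in WT, 116 and 179 under TGF-β, 231 and 138 for KO1, and 145 and 144 for KO2 (log2 change 1.41 ± 0.25 and 1.11 ± 0.25 (SE), adjusted p = 3.7e-04 and 0.00353). TGF-β and KO values overlapped. Its calls in both clones were lost when only the groups compared were fitted, which left 11 members higher in both clones. It had 90.4 and 77.5 in the libraries labelled KO2 rescue, 114 and 107 in Rescue1, 125 and 112 in Rescue2, and 155 to 245 in transduced WT. CYLD, a deubiquitinase that limits NF-κB, had 1217 and 913 in WT, 3278 and 3362 in KO1, and 1817 and 1780 in KO2. Its log2 change in KO1 was 1.66 ± 0.12 (SE, adjusted p = 6.0e-08), whereas KO2 had 0.77 ± 0.12, below the fold threshold. TNIP1, the most abundant feedback regulator at 7646 to 17653 over the 22 libraries, was called in neither clone.

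TRAF3, an adaptor that keeps the alternative NF-κB pathway inactive, had 1513 and 1857 in WT, 2114 and 1972 under TGF-β, 3711 and 3815 for KO1, and 3933 and 3613 for KO2 (log2 change 1.17 ± 0.09 in each clone (SE), adjusted p = 1.1e-07 and 1.9e-07). The libraries labelled KO2 rescue had 2234 and 2111, Rescue1 had 2245 and 2189, Rescue2 had 2061 and 2240, and transduced WT had 2226 to 2661. KO libraries were above every other library. BIRC2, a ubiquitin ligase of the same complexes, was lower in KO than in WT by less than the fold threshold, with 2652 and 2594 in WT, 1776 and 1852 in KO1, and 1665 and 1865 in KO2 (log2 change -0.53 ± 0.09 and -0.57 ± 0.09 (SE)). BIRC3, its inducible paralog, was called in KO1 only, at low counts of 197 and 92.5 against 32.2 and 13.6 in WT, and the call was lost without WT replicate 2 or without KO1 replicate 1. It had 10.6 and 6.66 under TGF-β, 79.5 and 23.2 in KO2, 15.1 and 1.52 in the libraries labelled KO2 rescue, 15.8 and 3.35 in Rescue1, 15.3 and 25.9 in Rescue2, and 24.8 to 118 in transduced WT, so that KO2 overlapped with WT and rescue. RIPK2, the kinase below NOD receptors, had 455 and 437 in WT, 1235 and 1136 in KO1 (log2 change 1.41 ± 0.14 (SE), adjusted p = 1.2e-06), and 931 and 783 in KO2 (0.93 ± 0.14, below the fold threshold).

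TNFAIP2, a protein of membrane protrusions induced by TNF, spans chr14:103121476-103137439 on the plus strand. It had 8717 and 7902 in WT, 9824 and 10477 under TGF-β, 30092 and 26706 for KO1, and 21729 and 19503 for KO2 (log2 change 1.77 ± 0.08 and 1.31 ± 0.08 (SE), adjusted p = 1.3e-10 and 7.7e-09). TNFAIP2 was not called in the eGFP line (log2 change 0.08 ± 0.08 (SE), adjusted p = 0.519), where NFKBIA was called, and had 8614 to 9602 in transduced WT, and it was below WT in Rescue1 (3147 and 3522) and Rescue2 (4502 and 4306). The libraries labelled KO2 rescue had 9563 and 10071.

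The C/EBP factors are bZIP transcription factors of the acute phase response. CEBPB had 386 and 287 in WT, 578 and 555 under TGF-β, 2842 and 2795 for KO1, and 1440 and 1313 for KO2 (log2 change 3.08 ± 0.12 and 2.04 ± 0.12 (SE), adjusted p = 5.5e-11 and 1.0e-08). It had 508 and 544 in the libraries labelled KO2 rescue, 684 and 612 in Rescue1, 397 and 393 in Rescue2, 987 and 880 in the eGFP line, and 792 to 986 in the other transduced lines. CEBPD had 572 and 602 in WT, 99.1 and 93.8 under TGF-β, 1688 and 1750 for KO1, and 1926 and 1910 for KO2 (log2 change 1.55 ± 0.10 and 1.71 ± 0.10 (SE), adjusted p = 1.2e-08 and 7.6e-09). It had 890 and 819 in the libraries labelled KO2 rescue, 920 and 719 in Rescue1, 535 and 547 in Rescue2, and 2203 to 2786 in transduced WT, the highest of all groups.

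None of the subunits was called in either KO clone. NFKB1 had 678 and 659 in WT, 770 and 1085 in KO1, and 1345 and 1279 in KO2, with a log2 change of 0.45 ± 0.19 for KO1 (SE, adjusted p = 0.0767) and 0.97 ± 0.19 for KO2 (adjusted p = 0.00124), just under the fold threshold in KO2, and without KO2 replicate 2 it was called there. REL lay at 533 to 759 and RELA at 149 to 240 over WT and both KO clones, and NFKB2 at 43.6 to 110. RELB differed widely between replicates, with 717 and 533 in WT, 809 and 369 in KO1, and 43.5 and 497 in KO2, and was called in neither clone, although it was called lower in KO2 without KO2 replicate 2. Per kilobase of transcript, the WT mean was 277 for RELB, 165 for NFKB1, 63.5 for REL, 62.7 for RELA and 19.8 for NFKB2, against 1941 for NFKBIA and 1376 for NFKBIZ.

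**Figure D3:**
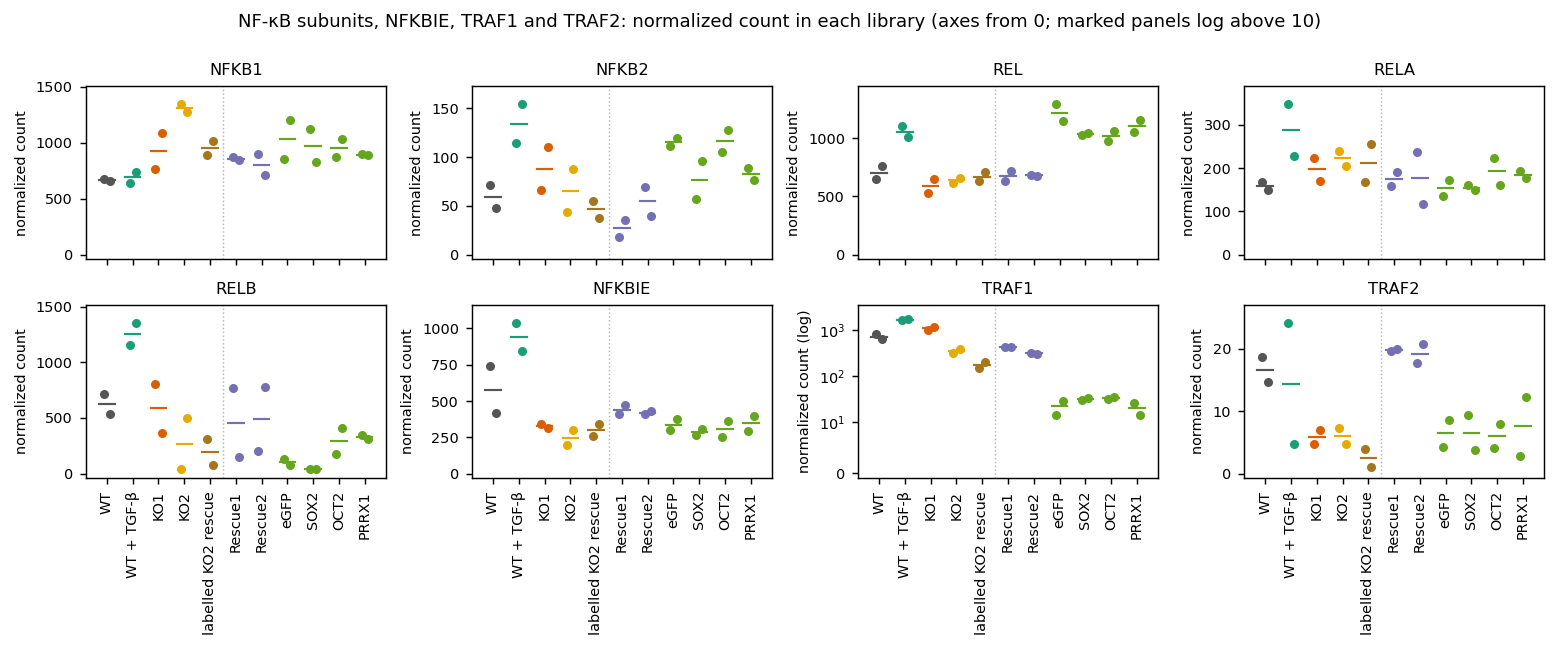
Normalized counts of the 5 subunits and of NFKBIE, TRAF1 and TRAF2, 1 point per library and a bar at the mean of 2, with axes from 0 and a log axis above 10 for TRAF1. RELB spans 43.5 to 497 within KO2 alone, and TRAF1 falls from 812 and 624 in WT to 14.4 and 29.1 in the eGFP line.

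Some genes of proliferation moved with these groups. MKI67, TOP2A and CCNB1 were called lower in KO1, in KO2 and with TGF-β, whereas PCNA and MCM2 were called in none of these comparisons and were above both WT libraries in both KO1 libraries. The summed level of MKI67, TOP2A, CCNB1, PCNA and MCM2 was 6897 and 9768 in WT, 1604 and 1692 under TGF-β, 537 and 576 in KO1, 786 and 1597 in KO2, and 2107 and 1826 in the libraries labelled KO2 rescue. It was 5048 to 5645 in Rescue1 and Rescue2 and 2433 to 3527 in transduced WT, with MKI67 or CCNB1 the most abundant gene. Their part in the members' changes was not tested.

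The clones were compared directly because each is a single clone. The directions given rest on the library labels of KO1 and KO2, which the headings of the study's gene table appear to exchange, and they would turn with those labels, as would the calls given for KO1 or KO2 alone. Of the 30 tested members, 2 were called between KO1 and KO2, both higher in KO1, where 2.48% of all genes were called higher and 4.49% lower. TRAF1, a signalling adaptor and a well-known NF-κB target, had 812 and 624 in WT, 1017 and 1190 in KO1, and 319 and 393 in KO2, so that it lay above both WT libraries in KO1 and below both in KO2 (log2 change between clones 1.63 ± 0.31 (SE), adjusted p = 0.00201). CEBPB was higher in KO1 by a log2 change of 1.04 ± 0.12 (SE, adjusted p = 5.0e-05), which fell to 0.93 with quantile normalization, 0.85 at equal totals and 0.97 without KO2 replicate 2, under the fold threshold each time. At equal totals the median of all genes between the clones was -0.21 and the calls over all genes went from 361 higher and 655 lower to 257 and 890. In all, 1016 genes were called between the clones, against 1730 without KO1 replicate 1 and 635 without KO2 replicate 2.

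TGF-β, an inducer of epithelial-mesenchymal transition, served as a second condition beside SETD2 loss, and these comparisons share the WT libraries. With TGF-β, 4 of the 30 tested members were called higher than in WT (TRAF1, TNFAIP3, ZC3H12A and IER3) and 2 lower (SOD2 and CEBPD), where 3.58% of all genes were called higher and 4.26% lower. The median log2 change was 0.39 for the members and 0 for all genes. TRAF1 had 1633 and 1750 with TGF-β (log2 change 1.25 ± 0.31 (SE), adjusted p = 0.0103). IER3, an early response gene that affects cell survival, had 241 and 148 in WT and 404 and 527 with TGF-β (1.28 ± 0.23, adjusted p = 9.5e-04), and it lies in the MHC region, where reads may be shared with alternative haplotype copies. TNFAIP3 and ZC3H12A rose by 1.01 ± 0.21 and 1.11 ± 0.25 on the log2 scale (adjusted p = 0.00361 and 0.00638). CEBPD fell 6.09-fold (log2 change -2.59 ± 0.10 (SE), adjusted p = 1.0e-09) and SOD2 2.42-fold (-1.27 ± 0.07, adjusted p = 1.9e-08).

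The 2 decreases were called under every alternative on the scale of normalized counts, whereas the increases were less stable. TRAF1, TNFAIP3 and IER3 lost their calls without WT replicate 2, and TRAF1, TNFAIP3 and ZC3H12A without TGF-β replicate 2, which left 3 members called in each case while calls over all genes went from 1143 to 734 and 885, and TRAF1 also lost its call without TGF-β replicate 1. At equal totals the median of all genes was -0.20, all-gene calls went from 522 higher and 621 lower to 357 and 937, and TRAF1 and IER3 were the increases that remained.

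Tested directly against TGF-β, the mean of both KO clones was higher for 10 of the 30 members and lower for 4, where 10.3% and 9.83% of all genes were called. The 10 were SOD2, CEBPD, CEBPB, IRAK3, MAP3K8, TNIP3, TNFAIP2, NFKBIA, BIRC3 and RIPK2. SOD2 differed by a log2 change of 5.78 ± 0.06 and CEBPD by 4.22 ± 0.09 (SE; adjusted p = 1.3e-17 and 3.0e-14). The 4 lower in KO were IER3 (-1.44 ± 0.20), TRAF1 (-1.44 ± 0.27), NFKBIE (-1.74 ± 0.24) and MAP3K14 (-2.37 ± 0.70), the central kinase of the alternative pathway, with adjusted p from 3.1e-05 to 0.0153. MAP3K14 was low throughout, at 6.71 to 102 normalized counts, and its call was lost without TGF-β replicate 1, without TGF-β replicate 2 or without KO2 replicate 2. The BIRC3 call was lost without TGF-β replicate 2 (log2 change 2.74).

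**Figure D4:**
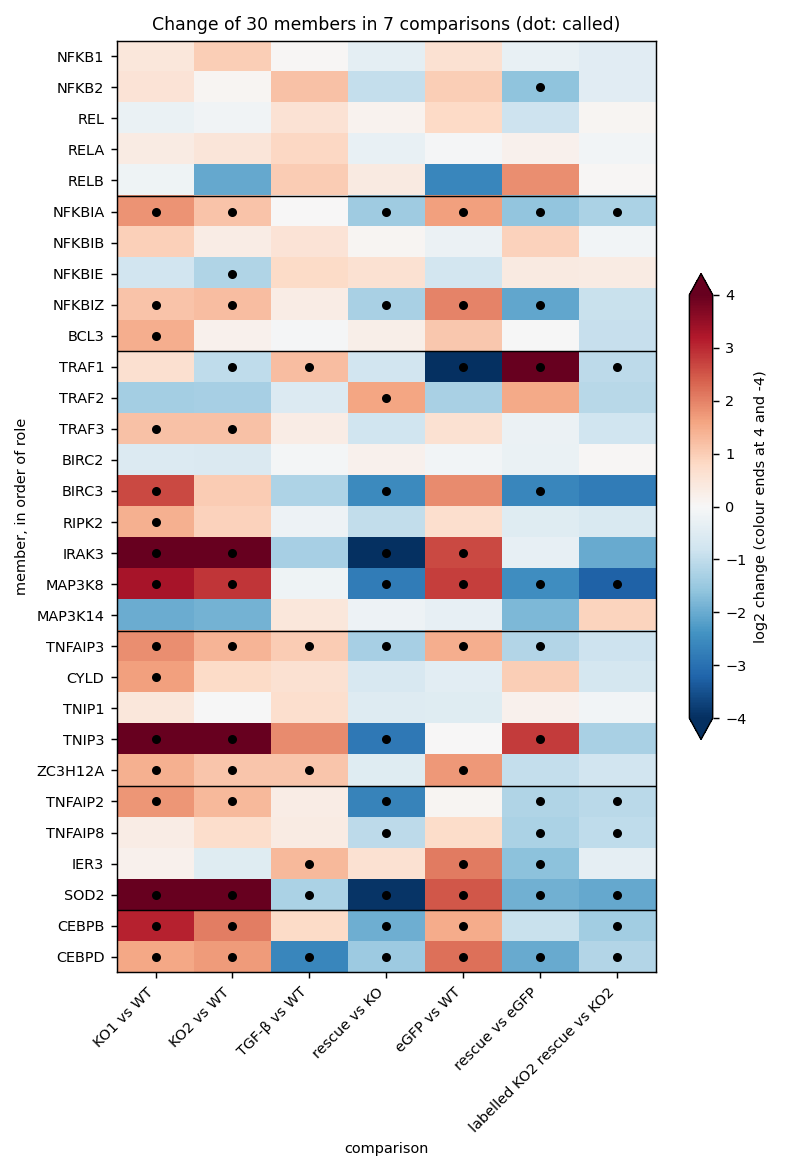
Log2 change of (normalized count + 1) for the 30 tested members, in order of role, in 7 comparisons; red is higher and blue lower, the colour ends at 4 and -4, and a dot marks a member called at adjusted p under 0.05 and a log2 change over 1 in size. The 12 members called higher in both KO clones form the red dotted rows of the left columns, and TRAF1 is the member with the lowest value in eGFP against WT, at -5.05.

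Re-expression of SETD2 was compared with its loss through Rescue1 and Rescue2. Against the mean of both KO clones, 12 of the 30 members were called lower and 1 higher, where 11.9% and 11.3% of all genes were called. The median log2 change of the members was -0.78 and that of all genes 0. KO and rescue cells were grown in 2% and 10% serum, and rescue cells were also transduced, selected with blasticidin and cloned again. These differences and SETD2 cannot be told apart in this comparison. This comparison and KO against WT share the KO libraries, so members high in KO are not independently low in rescue. TRAF3 and ZC3H12A were not called here. The log2 change was -3.93 ± 0.05 for SOD2, -6.48 ± 0.49 for IRAK3, -2.79 ± 0.22 for MAP3K8 and -2.66 ± 0.06 for TNFAIP2 (SE; adjusted p = 3.6e-16, 4.9e-08, 8.8e-08 and 2.7e-14).

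NFKBIA, NFKBIZ, TNFAIP3, CEBPB, CEBPD and TNIP3 were lower by log2 changes of -1.29 to -2.84. BIRC3, at 3.35 to 25.9 in rescue, and TNFAIP8, a regulator of cell death, were also called lower. TNFAIP8 had 1082 and 938 in KO1, 1310 and 1332 in KO2, 548 and 551 in Rescue1, and 537 and 617 in Rescue2, against 947 and 699 in WT and 930 and 1142 with TGF-β (log2 change -1.04 ± 0.10 (SE), adjusted p = 5.8e-07). It was just past the fold threshold and not past it without KO1 replicate 1 or without Rescue2 replicate 1. TNFAIP8 had 660 and 638 in the libraries labelled KO2 rescue and 1242 to 1442 in transduced WT. TRAF2, an adaptor of the TNF receptor, was the member called higher, from 4.74 to 7.36 in KO to 17.7 to 20.7 in rescue, with 18.6 and 14.7 in WT, 24.1 and 4.67 under TGF-β, 4.01 and 1.03 in the libraries labelled KO2 rescue and 2.85 to 12.3 in transduced WT. With so few reads its call was lost when any of 6 of the 8 libraries was left out.

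At equal totals the median of all genes between rescue and KO was 0.38, the all-gene calls went from 1652 higher and 1740 lower to 2801 and 1150, and the members from 1 higher and 12 lower to 3 and 9. NFKBIE and IER3 were then also called higher, and NFKBIZ, TNFAIP3 and TNFAIP8 were not called. Against WT, rescue clones had 2 members higher (IRAK3 and TNIP3) and 2 lower (TNFAIP2 and MAP3K14) among the 30, with 12% of all genes called. IRAK3 differed between the clones, at 0 and 3.1 in Rescue1 and 305 and 258 in Rescue2 (log2 change -7.12 ± 0.69 (SE), adjusted p = 2.7e-05), where 0.994% of all genes were called between the clones. Both Rescue1 values lay under the floor of 3 reads (4.785 and 3.48 normalized counts), so the size of this change is not exact.

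The libraries labelled KO2 rescue share the serum of KO2. Here too the baseline rests on the library label of KO2, and with KO1 and KO2 exchanged it would be the other clone. Against KO2, 8 of the 30 members were called lower and 0 higher, where 2.52% and 1.65% of all genes were called. They were NFKBIA, TRAF1, MAP3K8, TNFAIP2, TNFAIP8, SOD2, CEBPB and CEBPD. MAP3K8 was lower by a log2 change of -3.23 ± 0.32 and SOD2 by -2.04 ± 0.07 (SE; adjusted p = 6.9e-06 and 1.8e-10), in libraries whose SETD2 mRNA was below that of KO2. TRAF1, with 147 and 199, lost its call when any of the 4 libraries was left out and with the replicate number as a block, and TNFAIP2 without KO2 replicate 1 (log2 change -0.99). TNFAIP8 lost its call without replicate 2 of the libraries labelled KO2 rescue, with quantile normalization and at equal totals.

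The transduced WT lines gave a second setting in which members were called. In the eGFP line, 10 of the 30 members were called higher than in WT and 1 lower, where 6.49% and 6.24% of all genes were called. The 10 were NFKBIA, NFKBIZ, IRAK3, MAP3K8, TNFAIP3, ZC3H12A, IER3, SOD2, CEBPB and CEBPD. NFKBIZ rose by 1.97 ± 0.07, CEBPD by 2.19 ± 0.10, SOD2 by 2.49 ± 0.07 and MAP3K8 by 2.76 ± 0.32 on the log2 scale (SE; adjusted p = 5.8e-11, 1.1e-09, 4.8e-12 and 1.4e-05). IER3 had 815 and 800 in the eGFP line and 729 to 936 in the other transduced lines, against 198 and 226 in KO1, 156 and 116 in KO2, 300 and 243 in Rescue1, 271 and 232 in Rescue2, and 91.5 and 119 in the libraries labelled KO2 rescue. TRAF1 fell 33-fold, to 14.4 and 29.1 (log2 change -5.05 ± 0.31 (SE), adjusted p = 2.8e-08), was at 13.9 to 34.2 in the other transduced lines, and was at 432 and 429 in Rescue1 and 324 and 295 in Rescue2. Serum, transduction and puromycin differ together between the eGFP line and WT and cannot be told apart. IRAK3 lost its call without WT replicate 2 or without eGFP replicate 1. Among the other genes of the pathway, calls in the eGFP line against WT went both ways. Higher were 1 of 10 IKK complex and kinase genes, 2 of 14 receptors and 2 of 15 ubiquitin and inhibitor genes. Lower were 1 of 12 adaptors, 1 of 14 receptors and 3 of 10 targets.

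Compared with the eGFP line, which shares their serum, the rescue clones had 11 of the 30 members called lower and 2 higher, where 6.66% and 6.47% of all genes were called. Lower were NFKB2, NFKBIA, NFKBIZ, BIRC3, MAP3K8, TNFAIP3, TNFAIP2, TNFAIP8, IER3, SOD2 and CEBPD. KO origin, cloning, the transduced gene and the selecting drug differ together between these groups and cannot be told apart. Taken clone by clone, NFKB2, BIRC3, TNFAIP2 and ZC3H12A were called lower in Rescue1 only, and CEBPB in Rescue2 only. CYLD was called higher in Rescue1 only and TNIP3 in Rescue2 only. This does not show that the clones differ, and none of these genes was called between them. TNFAIP2 was also lower in Rescue2, at 4502 and 4306 against 8653 and 8871 in the eGFP line, but was not called there. IRAK3, not called for both clones together, was called lower in Rescue1 and higher in Rescue2. NFKBIZ differed by -2.08 ± 0.06, CEBPD by -2.02 ± 0.09 and SOD2 by -1.91 ± 0.06 on the log2 scale (SE; adjusted p = 5.7e-12, 4.0e-10 and 1.7e-11). NFKB2, a subunit of the alternative pathway, had 18.7 and 35.1 in Rescue1, 69.6 and 39.5 in Rescue2, and 111 and 120 in the eGFP line, without overlap (log2 change -1.62 ± 0.39 (SE), adjusted p = 0.00566). TRAF1 was higher in rescue by 4.09 ± 0.27 (SE; adjusted p = 3.3e-08). TNIP3 was higher too (adjusted p = 0.0311), but it was listed at 0 in both eGFP libraries and in 1 of Rescue1, and its call was lost when any of 4 of the 6 libraries was left out. BIRC3 likewise lost its call when either eGFP library, Rescue1 replicate 2 or Rescue2 replicate 1 was left out.

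SOX2, OCT2 and PRRX1 are transcription factors that were expressed ectopically in WT cells. Against the eGFP line 0 of the 30 tested members were called by limma in any of the 3 lines, where 0.0206%, 0.0343% and 0.0411% of all genes were called in SOX2, OCT2 and PRRX1. At an unadjusted p under 0.05 and with no fold threshold, 2, 4 and 4 members passed, against 6.76%, 7.03% and 4.61% of all genes. Without eGFP replicate 2, limma's calls over all genes went from 3, 5 and 6 to 35, 32 and 40, with 0 members called. SOD2 lay at 39248 to 42583 and NFKBIA at 8402 to 9523 across the 8 transduced WT libraries.

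Of the other 63 genes of the pathway, 61 were tested, of which 5 were called higher and 12 lower in KO1 and 6 higher and 5 lower in KO2, with median log2 changes of 0.00 and 0.06. Over all genes 12% were called higher and 13.1% lower in KO1, and 9.02% and 7.29% in KO2. TBK1, TLR4 and BTRC were higher in both clones, and TNFRSF11A, TLR2, LTB and MMP9 lower in both. The shares of all genes above are per clone and do not give the background for calls in both, which is not given here. BTRC, the ubiquitin ligase subunit that marks IκB for degradation, had 120 and 49.9 in WT, 505 and 430 in KO1, and 497 and 390 in KO2, and its calls in both clones were lost without WT replicate 2, and that in KO2 also without KO2 replicate 1. MMP9, a matrix metalloproteinase, had 1126 and 722 in WT, 2364 and 2642 under TGF-β, 0 and 0 for KO1, and 7.45 and 4.93 for KO2. By group means it was 149-fold lower than WT in KO2. If the KO1 zeros are true low values, with 3 reads as the floor, KO1 was at least 326-fold lower. LTB, a TNF family cytokine gene of the same MHC region, had 35.4 and 23.9 in WT, 0 and 0 in KO1, and 0 and 1.23 in KO2. TBK1, an IKK-related kinase, was at 0.706 and 1.84 in WT, 11.5 and 21.3 in KO1, and 15.1 and 4.83 in KO2, too few reads for a fold. Its call in KO2 was lost without either WT library, without KO2 replicate 1, with a pseudocount of 5 and with no filter on low values, and that in KO1 when only the groups compared were fitted. CHUK, IKBKB and IKBKG, which form the IκB kinase and are named for that role after their values were seen, had log2 changes of -0.06, 1.07 and 0.56 in KO1 and of -0.51, 0.14 and 0.40 in KO2, with IKBKB in KO1 called. CHUK had low counts and replicates far apart, with 33.7 and 10.7 in WT, 4.01 and 73.9 in KO1, and 29.6 and 5.54 in KO2. Its log2 changes therefore do not show that it was stable. Under TGF-β, 3 of these 61 genes were called, each of them higher (TRAF5, TLR2 and TLR4), where 3.58% of all genes were called higher.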

How the data were processed

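RNA-seq libraries of hTERT RPTEC were made with a stranded mRNA kit. Per the labels and the study's methods, the authors quantified reads with Salmon 1.9.0 on Ensembl release 94 transcripts and used DESeq2 1.26.0, with hg38 as the build. The authors deposited log2 values (11.32 to 21.28), and how they were normalized and transformed is not given in the sources used here. Their shape is that of a variance-stabilized scale, so they were turned back into normalized counts with a single fitted parameter, and this conversion is an inference from the values. An exact 0 may be a failed estimate.

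Genes that reached 10 normalized counts in 2 or more libraries (14585 of 36859) were fitted with limma 3.58.1 (R 4.3.3, trended variance, Benjamini-Hochberg adjustment over all genes tested) on log2(normalized count + 1), all 22 libraries in 1 fit of group means. A fold threshold on this scale understates changes of low genes. On counts simulated for KO1 against WT over 13595 genes, 200 of 200 planted genes with a log2 change of 2 were recovered, with 2 false calls. The simulation set the same relative spread for every gene beyond read sampling, and no other gene differed between groups. Genes with the lowest means were not planted, so it does not show how low or variable members would fare. Per library, 3 reads served as the floor. Symbols came from GENCODE release 44 and matched 33878 genes, and SOD2 was matched through the identifier paired with it in the study's gene table. Python 3.11.15, numpy 2.4.6, pandas 2.3.3 and matplotlib 3.10.9 were used elsewhere.

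The members and lists were chosen with earlier results of these data known. Members were given library by library where they were called in both KO clones in the same direction, in TGF-β or in rescue against KO. Library labels were used for KO1 and KO2, although these headings appear exchanged in the study's gene table. Alternatives were other pseudocounts, filters and scalings, the deposited scale, a replicate block, fits of only the groups compared and leaving out each library.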

Additional observations from a re-analysis of the deposited data

Results flagged for a closer look

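Members that differed between clones of the same genotype by a test of the difference itself are given here, each with limma's adjusted p. TRAF1 was higher in KO1 than in KO2 by a log2 change of 1.63 (adjusted p = 0.00201), with both KO1 libraries above and both KO2 libraries below WT. CEBPB was higher in KO1 than in KO2 by 1.04 (adjusted p = 5.0e-05), with both clones above WT. These directions rest on the library labels of KO1 and KO2. IRAK3 was lower in Rescue1 than in Rescue2 by a log2 change of -7.12 (adjusted p = 2.7e-05), from 0 and 3.1 to 305 and 258 normalized counts. Both Rescue1 values lay under the floor of 3 reads, so the size of this change is not exact.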

How the results depend on the processing

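Of the counts of called members under the alternatives, 161 stayed within 1.5 times and 14 did not. On the log2 values as deposited, whose floor compresses low genes, 4 members were called in KO1, 2 in KO2, 0 with TGF-β, 2 in KO against TGF-β, 0 between the clones, 3 in rescue against KO, 2 in rescue against eGFP, 1 in the libraries labelled KO2 rescue against KO2 and 2 in eGFP against WT. Calls over all 14585 genes fell too on that scale, to 178, 94, 31, 134, 23, 96, 35, 35 and 36 in the same order. With TGF-β, 3 were called when only the groups compared were fitted and 3 to 7 when 1 library was left out, while calls over all genes went from 1143 to 431 of 12497 and to 734 to 1296. Between KO1 and KO2, 1 member was called with quantile normalization or with the same total for every library, and the cause was not tested. The stricter κB motif was held by 17.2% of members' promoters. Leaving out 1 library gave 14 to 16 called members in KO1, 12 to 17 in KO2 (17 without KO2 replicate 2), 12 to 16 in KO against TGF-β, 2 to 3 between the clones, 12 to 14 in rescue against KO, 11 to 13 in rescue against eGFP, 6 to 8 for the libraries labelled KO2 rescue, 10 to 11 in eGFP against WT, and 0 in each ectopic line.

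Of single members' calls, 1349 kept their side of the thresholds, 85 fell below and 4 rose above them, and none changed sign; on the deposited scale 23 kept it and 81 fell below. Same-numbered replicates did not deviate together (correlations of -0.08 to 0.05 over 55 pairs of groups), and with the replicate number as a block every count of called members, 16 in KO1 and 14 in KO2 among them, was as in the fit without it, although in the libraries labelled KO2 rescue the TRAF1 call was lost and BIRC3 was called instead. Without the libraries labelled KO2 rescue, chosen after seeing the data, the counts did not change. With 2 libraries per group, the replicates differed by a median of 0.06 to 0.159 on the log2 scale over abundant genes, against 0.029 to 0.036 from read sampling alone.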

Other observations

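CD83 was listed at 0 normalized counts in 21 of the 22 libraries and at 278 in PRRX1 replicate 2.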
